A study of Mus musculus with 6 samples.

Results

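The import translocases of mitochondria were examined as a group of 36 genes among 40413 in the deposited table. Members were picked out of the table by a rule on gene symbols, a rule written with earlier results of these data known: the Timm and Tomm genes, Timmdc1, Samm50, the metaxins Mtx1, Mtx2 and Mtx3, Pam16, Grpel1 and Grpel2, Pmpca and Pmpcb, and Chchd4. All 36 are protein-coding in RefSeq (GRCm38.p6). Of them 34 had enough counts to be tested, and the untested pair was Tomm20l, with 0 counts in all 6 libraries, and Timm8a2, with 8 counts over the 96 h libraries and 25 over the 0 h libraries. RNA came from N2A-A5, a derivative of the mouse neuroblastoma line Neuro-2a that the labels call acceptor cells. The differentiated group (96 h, 3 libraries) had been seeded for 96 h in medium with 1% fetal bovine serum and 10 µM retinoic acid and no blasticidin. The undifferentiated group (0 h, 3 libraries) had been kept in medium containing blasticidin and 10% fetal bovine serum, without retinoic acid. Serum, retinoic acid, blasticidin and time in culture changed together and cannot be told apart, and all cells are of this single line. Whether it is 1 clone, and whether the libraries come from separate cultures, is not given in the sources used here, so p-values measure the spread between these libraries.

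Nearly all mitochondrial proteins are encoded in the nucleus, made in the cytosol and imported. The TOM complex of the outer membrane receives precursors and passes them on to SAM, which inserts beta-barrel proteins of the outer membrane, to the MIA oxidoreductase of the intermembrane space, to the small TIM chaperones and TIM22, which insert metabolite carriers into the inner membrane, or to TIM23 and its PAM motor, which pull precursors with a targeting signal into the matrix, where the processing peptidase removes that signal. Neurons depend on this route along with all other nucleated cells, and loss of the human counterpart of Timm8a1 causes deafness-dystonia syndrome.

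The libraries held 16.8 to 19.0 M estimated counts at 96 h and 17.6 to 20.9 M at 0 h. Their makeup differed: the predicted gene Gm26917 made up 28.7% to 31.7% of the 96 h libraries and 18.7% to 22.7% of the 0 h libraries, and nuclear protein-coding genes made up 48.0% to 51.5% and 62.7% to 66.8% of the same libraries. The scaling used here (TMM, a trimmed mean of the ratios between libraries) rests on the bulk of expressed genes, whereas scaling by total counts alone put the median over all genes -0.25 away on the log2 scale. The 12 sympathetic neuroblast markers summed to 1019 to 1067 CPM (counts scaled to a library of 1000000) at 96 h. At 0 h they summed to 1377 to 1434 CPM. Hand2 and Tubb3 gave the most counts, and Th had a mean of 0.70 CPM at 96 h and 0.78 CPM at 0 h. Markers of 6 other cell types were low: fibroblast markers (4 genes, mostly Pdgfra) summed to 10.5 to 12.2 CPM at 96 h and 4.28 to 4.77 CPM at 0 h, oligodendrocyte and Schwann cell markers to 5.18 to 9.0 CPM at 96 h and 6.46 to 8.93 CPM at 0 h, and the other 4 lists to at most 4.09 CPM in any library. Aqp4, Slc1a3, Aif1 and Krt18 had 0 counts in all libraries. The part of these differences in the results below was not tested.

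Transcripts of the TOM receptors and channel, of Samm50, of the Timm9, Timm10 and Timm13 chaperones, of Timm17a and of the processing peptidase were lower in differentiated cells, while those of the matrix motor did not pass the test. At an edgeR adjusted p under 0.05, 15 of the 34 tested members were lower at 96 h (44.1%), 1 was higher, Timmdc1 (2.94%), and 18 did not pass. Over all 13705 genes tested 28.8% were lower and 28.7% higher, and over the 9444 genes at or above the mean level of the lowest tested member (5.78 CPM) 38.6% were lower and 27.6% higher. The share of members that fell was therefore above that of all genes and closer to that of the genes at or above this level. That set has no upper limit and was not matched to the levels of the members. The falls were small, and no tested member changed as much as 2-fold: log2 fold changes ran from -0.64 (Timm10) to 0.33 (Timmdc1), with a median of -0.22 where the median of all tested genes was 0.03. In 16 tested members all 96 h libraries lay below all 0 h libraries (31.7% of all genes tested did so), and in 2 tested members all lay above (32.4%).

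Summed over the 36 members, expression was 1122, 1091 and 1153 CPM in 96 h replicates 1, 2 and 3, against 1348, 1381 and 1334 CPM in 0 h replicates 1, 2 and 3. Every 96 h sum was below every 0 h sum, and the 96 h mean was 82.9% of the 0 h mean (exact permutation p = 0.1; a comparison of 3 with 3 cannot give less). Set against nuclear protein-coding counts only, the 96 h libraries gave the members 2085 ± 52.1 of every 1000000 such counts and the 0 h libraries gave them 2276 ± 43.3 (SD, n = 3 per group). The 96 h value is 91.6% of the 0 h value, again without overlap. In bulk RNA, fewer cells expressing a gene and less RNA of it per cell cannot be told apart. With scaling by library size only, 25 members were called lower and Timmdc1 was not called (edgeR). That scaling called 42.7% of all 13705 tested genes lower, against 28.8% on the TMM scale. The directions given below are therefore relative to the TMM scale.

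**Figure D1:**
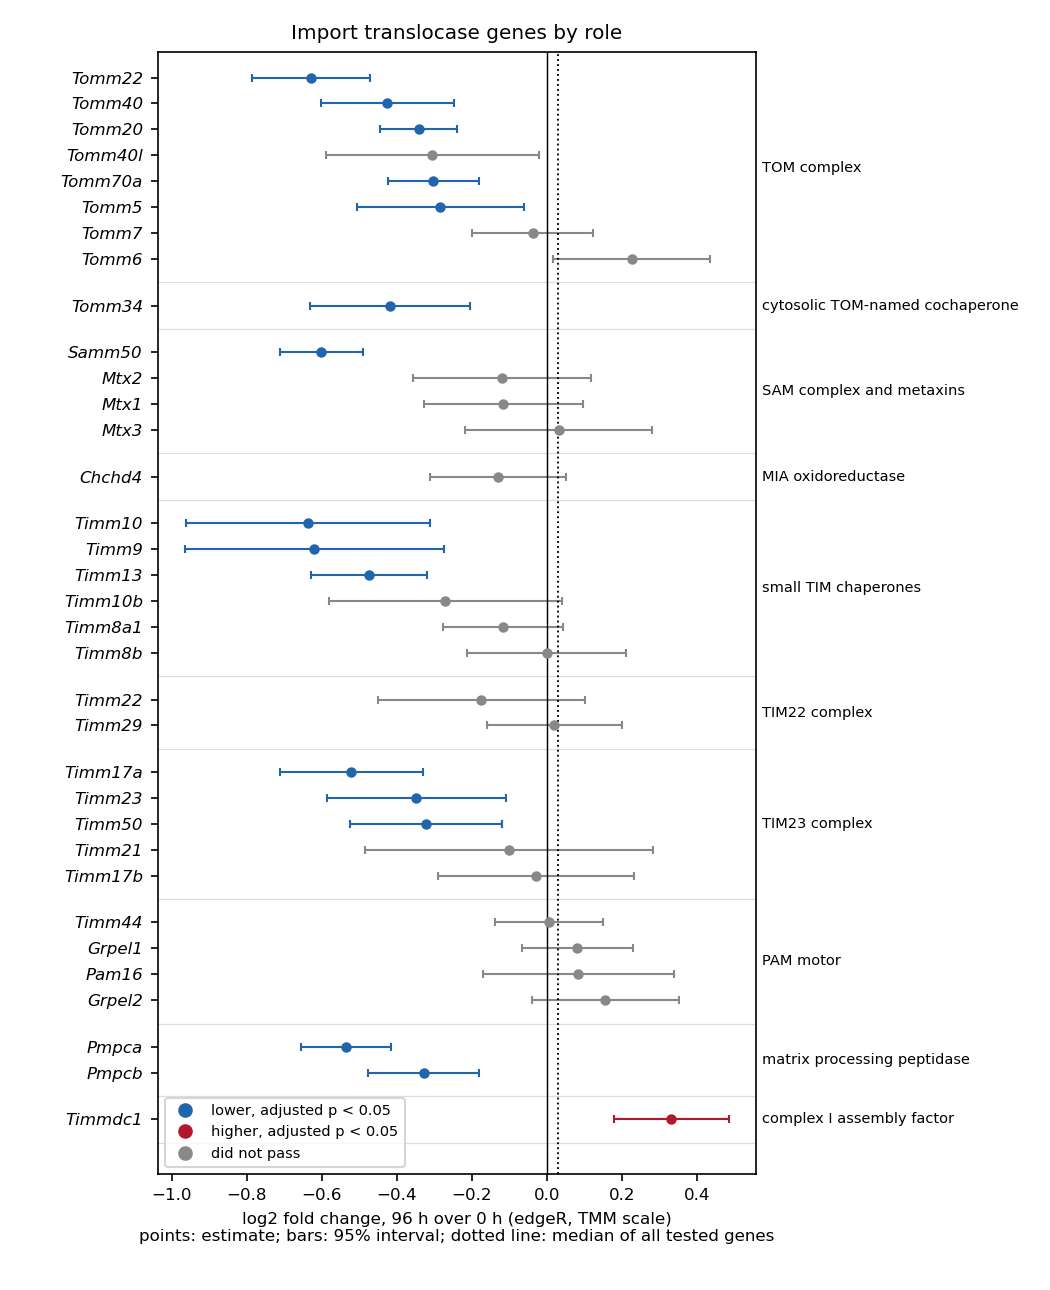
Log2 fold change of the 34 tested members, 96 h over 0 h, grouped by role. Points are edgeR estimates on the TMM scale, bars are 95% intervals, colours give the call at an adjusted p under 0.05 and the dotted line is the median of all tested genes (0.03). Estimates of the PAM motor lie between 0.01 and 0.16, and those of both processing peptidase subunits lie at -0.54 and -0.33.

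Promoter sequences from RefSeq (GRCm38.p6) were available for 32 of the 36 members; Grpel2, Timm21, Tomm40l and Tomm7 had none. The 250 bases before each gene's start were searched on both strands for 5 motifs: GCGC, any base and TGCGC for NRF1, CCGGAAGT for the ETS-family factor GABP, AAGATGGCG for YY1, TGATGNAA for ATF4 and CACGTG, the E-box of MYC and USF. NRF1 and GABP are known activators of nuclear genes for mitochondrial proteins, including TOM receptors. The GABP motif occurred in 8 of the 32 promoters (25.0%), against 6.75% of the 10152 tested genes with a promoter and 3.23% of all 27025 genes with one. It was found in 3 of the 15 members that fell and in 4 of the 15 tested members with a promoter that did not fall. The remaining member with this motif was Timm8a2, which was not tested, and the untested Tomm20l held an E-box. The NRF1 motif was in 3 members (9.38%, against 9.03% of tested genes and 4.23% of all genes), the E-box in 5 (15.6%, against 9.73% and 6.86%), and the YY1 and ATF4 motifs in none (tested genes 1.39% and 2.52%, all genes 0.71% and 3.91%). The sequences are the 150 bases before the start, read 5′ to 3′ on the gene's strand with the matches in capitals, for 4 of the 5 members that fell and hold a match (Pmpcb, Tomm70a, Timm23 and Tomm20; the other is Timm9, with an E-box 58 bases before its start) and for Timmdc1, the member that rose. The windows are chr5:21737010-21737159 (plus strand) for Pmpcb, chr16:57121564-57121713 (plus) for Tomm70a, chr14:32201892-32202041 (minus) for Timm23, chr8:126945922-126946071 (minus) for Tomm20 and chr16:38522664-38522813 (minus) for Timmdc1.
Pmpcb: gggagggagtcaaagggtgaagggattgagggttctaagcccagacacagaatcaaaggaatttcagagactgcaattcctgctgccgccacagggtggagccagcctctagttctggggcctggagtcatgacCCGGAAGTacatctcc
Tomm70a: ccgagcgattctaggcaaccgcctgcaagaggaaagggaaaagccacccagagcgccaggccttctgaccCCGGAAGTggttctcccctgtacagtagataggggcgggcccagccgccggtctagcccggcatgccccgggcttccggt
Timm23: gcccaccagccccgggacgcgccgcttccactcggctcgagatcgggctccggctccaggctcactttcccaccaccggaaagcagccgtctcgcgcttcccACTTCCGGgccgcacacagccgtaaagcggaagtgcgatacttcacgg
Tomm20: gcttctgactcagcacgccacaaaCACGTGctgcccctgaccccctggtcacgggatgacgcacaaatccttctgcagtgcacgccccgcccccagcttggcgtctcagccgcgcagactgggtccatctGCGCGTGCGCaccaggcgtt
Timmdc1: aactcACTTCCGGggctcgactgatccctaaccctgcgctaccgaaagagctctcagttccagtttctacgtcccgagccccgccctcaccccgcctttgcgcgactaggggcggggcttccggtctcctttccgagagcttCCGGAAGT
The capitals mark the GABP motif, on either strand, in Pmpcb, Tomm70a, Timm23 and Timmdc1. In Tomm20 they mark the E-box first and the NRF1 motif, nearer to the start, after it. Timmdc1 held 2 GABP matches and rose, while Pmpcb, Tomm70a and Timm23 held 1 each and fell. Matches of different motifs share no base in these windows. A match is a description of these letters and shows no binding.

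The outer membrane receptors and the TOM pore were lower at 96 h. Tomm20, the receptor for precursors with an amino-terminal targeting signal, had 153.3, 152.7 and 153.5 CPM in 96 h replicates 1, 2 and 3, against 195, 202 and 185 CPM in the 0 h replicates. It fell by 0.34 on the log2 scale (SE 0.05, edgeR adjusted p = 3.15e-05). Tomm22, the central receptor, which also holds the complex together, had 25.0, 27.1 and 29.3 CPM at 96 h, against 42.4, 42.3 and 41.3 CPM at 0 h. Its log2 fold change of -0.63 ± 0.07 (SE, edgeR adjusted p = 5.74e-06) left it at 64.7% of the 0 h level, the lowest within TOM, and its libraries were far apart from each other by group. Tomm40, the channel itself, had 25.4, 21.9 and 25.9 CPM at 96 h, against 33.1, 31.2 and 34.2 CPM at 0 h (log2 fold change -0.43 ± 0.08, edgeR adjusted p = 5.53e-04). Tomm70a, the receptor for carrier precursors delivered by cytosolic chaperones, had 119, 120 and 122 CPM at 96 h, against 142, 161 and 142 CPM at 0 h (-0.30 ± 0.06, edgeR adjusted p = 3.83e-04). In each of these 4 genes every 96 h library was below every 0 h library.

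Of the 3 small subunits of TOM, Tomm5 alone passed the test. Tomm5, a small subunit beside the pore, had 18.0, 14.4 and 15.4 CPM at 96 h, against 17.8, 19.5 and 20.9 CPM at 0 h, and its groups overlapped. Its fall (-0.28 ± 0.10, edgeR adjusted p = 0.0306) did not hold in 4 of the 6 fits that leave out a library: the adjusted p was 0.0757 without 0 h replicate 2, 0.0952 without 0 h replicate 3, 0.128 without 96 h replicate 2 and 0.0986 without 96 h replicate 3. It was also lost with upper-quartile scaling (0.110), with the stricter filter (0.0746) or in DESeq2 (0.0598). Tomm7, another small subunit, known to act in the PINK1 pathway, had 45.4 ± 2.7 CPM at 96 h and 46.7 ± 3.9 CPM at 0 h (SD, n = 3 each) and a 95% interval of -0.20 to 0.12 for its log2 fold change. Tomm6 had 35.6, 28.5 and 30.6 CPM at 96 h, against 30.0, 26.4 and 24.5 CPM at 0 h. With a log2 fold change of 0.23 ± 0.10 it did not pass (edgeR adjusted p = 0.0613), but it was called higher without 0 h replicate 1 (0.0290), without 96 h replicate 2 (0.0338), with upper-quartile scaling (0.0149), with the stricter filter (0.0205) and with the replicate block (0.0262), whereas scaling by library size only gave -0.03. Its antisense neighbour Tomm6os had 6 counts at 96 h and 4 at 0 h over all libraries, and whether the counting used strand is not given in the sources used here. Tomm40l, a close relative of the channel, had 10.3, 9.53 and 8.74 CPM at 96 h, against 11.6, 10.5 and 13.1 CPM at 0 h, without overlap but not past the test (edgeR adjusted p = 0.0634, and 0.0389 without 0 h replicate 2). Tomm34, a cytosolic cochaperone of precursors that shares only the name, fell by 0.42 on the log2 scale (SE 0.10, edgeR adjusted p = 0.00250), with 24.5, 18.6 and 22.3 CPM at 96 h, against 27.7, 28.1 and 31.4 CPM at 0 h.

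**Figure D2:**
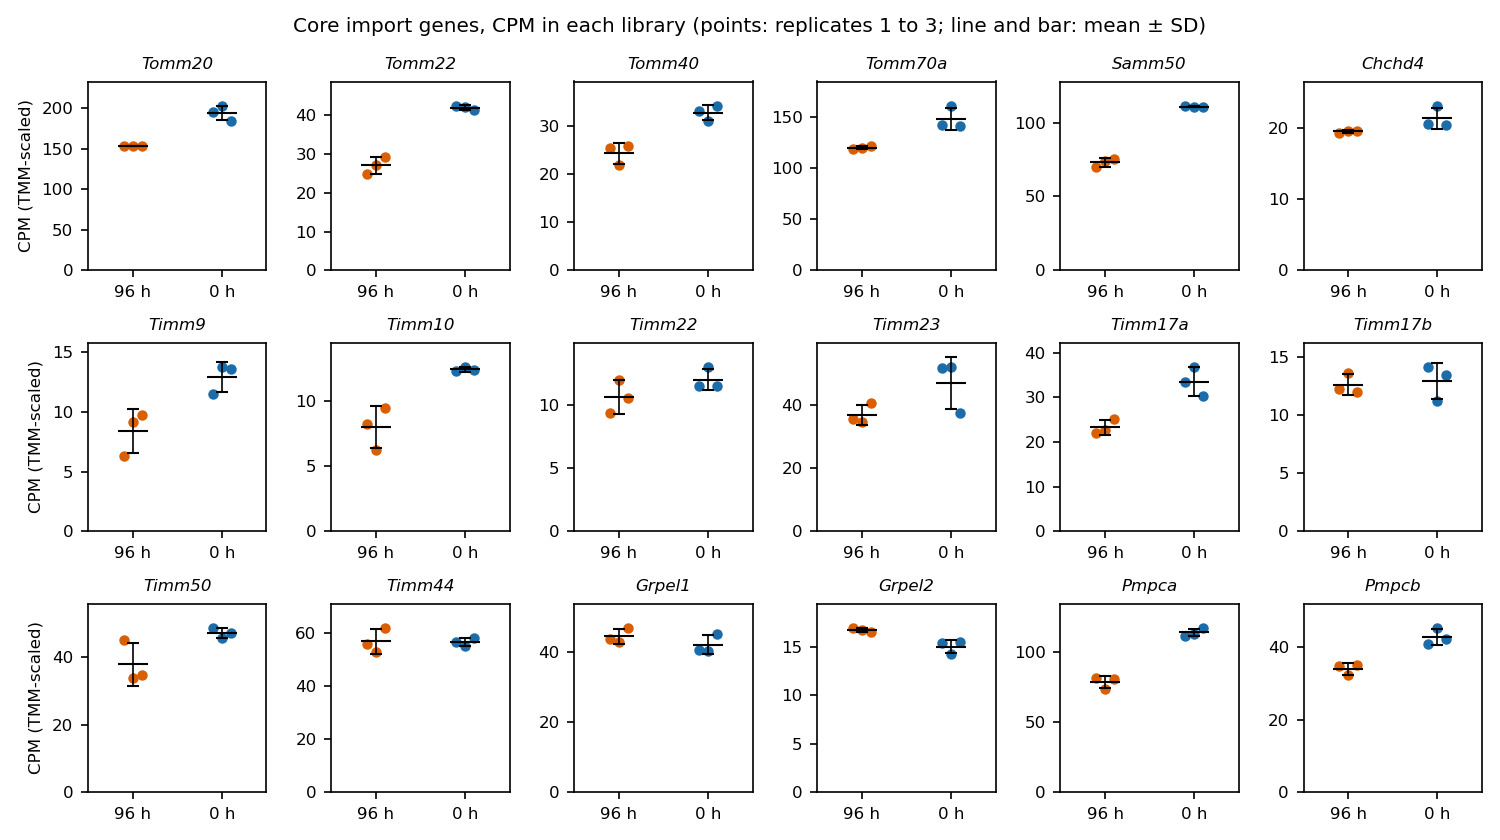
CPM of 18 core import genes in each library, with 96 h left of 0 h in every panel; points are replicates 1 to 3, and the line and bar are the mean ± SD. The axes start at 0 and differ between panels. The groups of Tomm22, Samm50, Pmpca and Timm17a are apart, whereas those of Timm44, Grpel1 and Timm17b overlap.

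Of the 4 genes of the SAM machinery, the 1 that passed was Samm50, the barrel protein that carries out insertion. It had 69.8, 73.8 and 75.3 CPM at 96 h, against 111, 111 and 111 CPM at 0 h. Its log2 fold change of -0.60 ± 0.05 (edgeR adjusted p = 2.86e-07), to 65.9% of the 0 h level, had the smallest adjusted p of all 34 tested members. The metaxins, cytosol-facing partners of SAM, did not pass: Mtx1 had 14.4 ± 0.95 CPM at 96 h and 15.6 ± 0.64 CPM at 0 h, Mtx2 21.4 ± 1.4 and 23.3 ± 3.9 CPM, and Mtx3 13.0 ± 1.5 and 12.8 ± 0.32 CPM (SD, n = 3 libraries each). Their log2 fold changes were -0.12 ± 0.10, -0.12 ± 0.11 and 0.03 ± 0.12 (SE), and the last was -0.22 with library size only.

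In the intermembrane space, 3 of the 6 tested small TIM chaperones, which escort carriers and beta-barrel precursors, were lower. Timm9 and Timm10 form the hexamer that escorts hydrophobic precursors. Timm9 had 6.26, 9.12 and 9.74 CPM at 96 h, against 11.5, 13.7 and 13.6 CPM at 0 h (log2 fold change -0.62 ± 0.16, edgeR adjusted p = 0.00455). Timm10 had 8.26, 6.25 and 9.46 CPM at 96 h, against 12.3, 12.6 and 12.4 CPM at 0 h (-0.64 ± 0.15, edgeR adjusted p = 0.00252). Timm13, which works in a second hexamer with Timm8 proteins, had 23.1, 23.2 and 24.8 CPM at 96 h, against 32.0, 33.9 and 33.1 CPM at 0 h (-0.47 ± 0.07, edgeR adjusted p = 6.89e-05). None of these 3 overlapped between the groups, and the counts behind Timm9 and Timm10 were among the lowest of the members that passed.

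The Timm8 partners of Timm13 did not pass. Timm8a1 had 35.0 ± 2.8 CPM at 96 h and 38.0 ± 1.8 CPM at 0 h, with a log2 fold change of -0.12 ± 0.07. Timm8b had 16.0 ± 0.86 CPM at 96 h and 16.0 ± 1.3 CPM at 0 h, with a 95% interval of -0.21 to 0.21. Its sign changed with the scaling, to 0.08 with upper-quartile factors, and it was called lower with library size only (-0.25, edgeR adjusted p = 0.0429). Timm10b, which docks the small chaperones on TIM22, had 13.2, 9.82 and 14.6 CPM at 96 h, against 14.2, 17.2 and 13.9 CPM at 0 h, and did not pass (-0.27 ± 0.14, edgeR adjusted p = 0.125), but leaving out 96 h replicate 3 gave an adjusted p of 0.0483. Its estimated counts were not whole in 4 of the 6 libraries, and the same held for Timm22 (more than 0.01 from a whole number), as happens when reads match more than 1 feature, so both values are less certain. Timm8a2 is a close relative of Timm8a1, and reads can be split between such copies. The estimated counts of Timm8a1 were whole in all 6 libraries, and those of Timm8a2 were not whole in 2.

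The oxidoreductase Chchd4 (the mouse form of Mia40), which traps cysteine-rich precursors, had 19.3, 19.6 and 19.7 CPM at 96 h, against 20.6, 23.1 and 20.4 CPM at 0 h. Its libraries did not overlap, but the difference was small and did not pass (-0.13 ± 0.08, edgeR adjusted p = 0.201). Neither TIM22 gene passed. Timm22, the carrier translocase channel, had 9.39, 12.0 and 10.6 CPM at 96 h, against 11.6, 13.0 and 11.5 CPM at 0 h (-0.17 ± 0.13, edgeR adjusted p = 0.261). Timm29, a subunit found in animals, had 24.5 ± 0.78 CPM at 96 h and 24.1 ± 2.1 CPM at 0 h (0.02 ± 0.08, and -0.23 with library size only).

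In TIM23, the presequence translocase of the inner membrane, 3 of 5 genes fell. Timm17a, a channel-forming subunit known to be degraded quickly under stress, had 22.0, 22.7 and 25.3 CPM at 96 h, against 33.5, 36.8 and 30.2 CPM at 0 h. It fell by 0.52 on the log2 scale (SE 0.09, edgeR adjusted p = 1.88e-04), without overlap. Timm50, the receptor that takes precursors from TOM, had 45.2, 33.8 and 34.8 CPM at 96 h, against 48.7, 45.9 and 47.3 CPM at 0 h. The highest 96 h library of Timm50 came close to the 0 h range, and its fall (-0.32 ± 0.09, edgeR adjusted p = 0.00963) did not pass without 96 h replicate 2 (adjusted p = 0.0511). Timm23 had 35.6, 34.9 and 40.7 CPM at 96 h, against 51.7, 52.2 and 37.5 CPM at 0 h, where replicate 3 lay within the 96 h range. Its fall (-0.35 ± 0.11, edgeR adjusted p = 0.0159) was not called in 4 of the 6 fits that leave out a library: the adjusted p was 0.0716 without 0 h replicate 1, 0.0839 without 0 h replicate 2, 0.0514 without 96 h replicate 1 and 0.0617 without 96 h replicate 2. Upper-quartile scaling gave 0.0535. Timm21, which links TIM23 to respiratory chain assembly, had 5.57 ± 0.73 CPM at 96 h and 5.99 ± 0.40 CPM at 0 h (edgeR adjusted p = 0.652).

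Timm17b, the paralogue of Timm17a, did not pass, with 12.3, 13.7 and 12.0 CPM at 96 h, against 14.2, 11.2 and 13.5 CPM at 0 h. Its log2 fold change was -0.03 ± 0.12 and 0.05 with upper-quartile scaling. The ratio of the paralogues within a library does not depend on scaling. The log2 ratio of Timm17a to Timm17b was 0.85, 0.73 and 1.07 at 96 h, against 1.24, 1.72 and 1.16 at 0 h, a difference of -0.49 (-0.32 without 0 h replicate 2). All 96 h ratios were below all 0 h ratios (p = 0.1 by exact permutation, or 0.35 after adjustment over the 7 pairs compared). Estimated counts of Timm17b were not whole in 2 libraries, 96 h replicate 1 and 0 h replicate 2, so the ratios there are less certain. For Pmpca and Pmpcb the log2 ratio was 1.20 ± 0.02 at 96 h and 1.41 ± 0.08 at 0 h (SD, n = 3), a difference of -0.21 with the same permutation p. The other 5 pairs overlapped between groups: differences were -0.07 for Grpel1 to Grpel2, -0.13 for Tomm40 to Tomm40l, -0.12 for Timm8a1 to Timm8b, -0.14 for Mtx1 to Mtx3 and -0.01 for Timm10 to Timm9 (exact permutation p = 0.2 to 1).

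**Figure D3:**
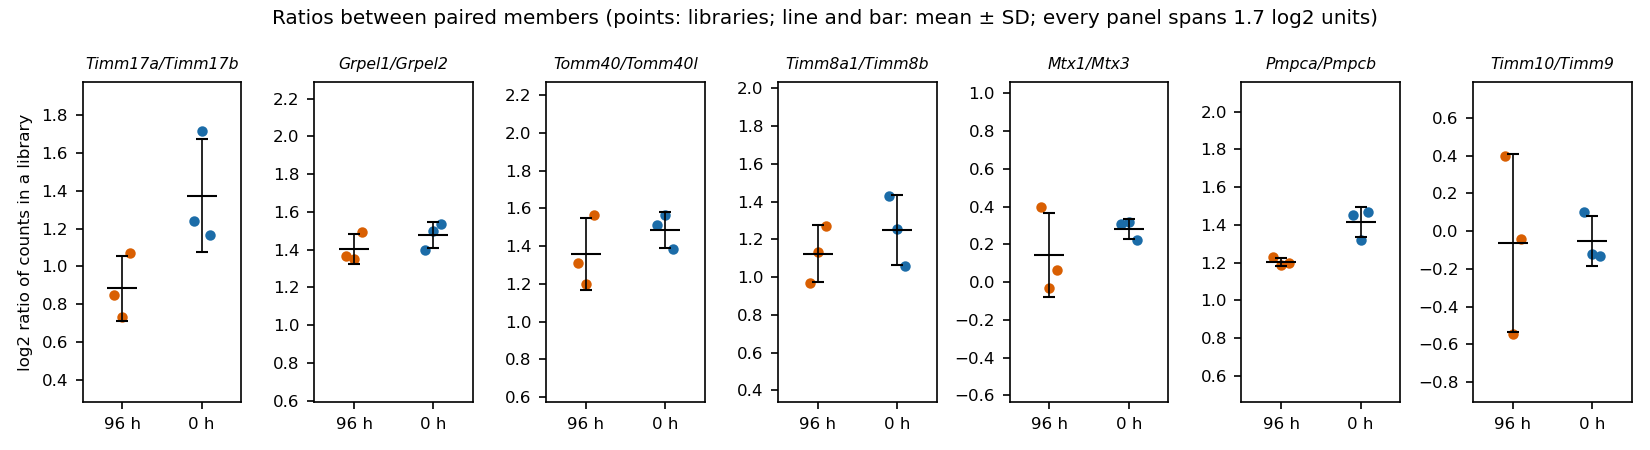
Log2 ratio of counts between paired members in each library, 96 h left of 0 h; points are libraries and the line and bar are the mean ± SD (n = 3). Each panel spans the same height. The groups are apart for Timm17a/Timm17b and Pmpca/Pmpcb and overlap in the other 5 pairs.

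None of the 4 PAM motor genes passed the test on the TMM scale. Timm44, the tether that recruits mitochondrial Hsp70 to the channel, had 55.8, 52.7 and 61.8 CPM at 96 h, against 56.6, 55.2 and 58.1 CPM at 0 h, a log2 fold change of 0.01 with a 95% interval of -0.14 to 0.15. Grpel1, the main nucleotide exchange factor of that Hsp70, had 43.7, 42.6 and 46.7 CPM at 96 h, against 40.5, 40.2 and 45.0 CPM at 0 h (95% interval -0.07 to 0.23). Grpel2, its stress-linked paralogue, had 16.9, 16.7 and 16.5 CPM at 96 h, against 15.3, 14.2 and 15.5 CPM at 0 h. All 96 h libraries of Grpel2 lay above those at 0 h, yet the difference did not pass (0.16 ± 0.09, edgeR adjusted p = 0.161, and 0.0384 with upper-quartile scaling). Pam16, a regulator of the motor's J-protein, had 13.5 ± 1.7 CPM at 96 h and 12.8 ± 0.71 CPM at 0 h (0.08 ± 0.12). With library size only, Timm44 was called lower (-0.24, edgeR adjusted p = 0.0191) and the others had values of -0.17 (Grpel1), -0.10 (Grpel2) and -0.17 (Pam16) that did not pass. On the TMM scale the intervals of Timm44 and Grpel1 did not reach the estimates of Samm50 or Pmpca, but a p that misses the threshold does not show that a gene was the same in both groups.

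Both subunits of the matrix processing peptidase were lower. Pmpca, the substrate-binding subunit, had 81.8, 73.5 and 80.5 CPM at 96 h, against 112, 113 and 117 CPM at 0 h. It fell by 0.54 on the log2 scale (SE 0.06, edgeR adjusted p = 1.89e-06). Pmpcb, the catalytic subunit, had 34.9, 32.2 and 35.1 CPM at 96 h, against 40.8, 45.2 and 42.2 CPM at 0 h (-0.33 ± 0.07, edgeR adjusted p = 0.00105). In both genes the groups were apart.

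Timmdc1 was the exception in direction. The protein is related in sequence to the TIM17 and TIM22 families but is known as an assembly factor of respiratory complex I. It had 33.2, 31.4 and 30.8 CPM at 96 h, against 25.4, 25.8 and 24.5 CPM at 0 h. The 96 h libraries were all above the 0 h libraries, a rise of 0.33 ± 0.07 on the log2 scale, to 126% of the 0 h level (edgeR adjusted p = 0.00127). With library size only the value was 0.08 and did not pass (adjusted p = 0.439).

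The shares of member counts that each role group took need no scaling between libraries. PAM motor genes took 11.4%, 11.6% and 12.0% of all member counts at 96 h, against 9.31%, 8.81% and 9.89% at 0 h. The processing peptidase took 10.4%, 9.68% and 10.0% at 96 h, against 11.3%, 11.5% and 11.9% at 0 h. Timmdc1 took 2.84% ± 0.15 at 96 h and 1.86% ± 0.02 at 0 h, and TIM22 genes took 3.13% ± 0.20 at 96 h and 2.67% ± 0.17 at 0 h (SD, n = 3 libraries each). Chchd4 took 1.74% ± 0.05 at 96 h and 1.58% ± 0.08 at 0 h, and SAM genes took 10.9% ± 0.46 at 96 h and 12.0% ± 0.42 at 0 h. In each of these role groups the 96 h and 0 h shares were apart. The members' total was lower at 96 h, so a share can rise without a rise in level. In CPM, TIM22 genes summed to 35.2 ± 1.8 at 96 h and 36.2 ± 2.9 at 0 h, and Chchd4 had 19.5 ± 0.19 and 21.4 ± 1.5. PAM sums were 131 ± 6.5 CPM at 96 h and 126 ± 5.2 CPM at 0 h and overlapped, while Timmdc1 was higher at 96 h in CPM as well. The shares of TOM (38.1% ± 0.48 at 96 h and 38.6% ± 0.47 at 0 h), of the small TIM chaperones, of TIM23 and of Tomm34 did overlap. These shares are a description of groups chosen with the fold changes known and were not tested.

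**Figure D4:**
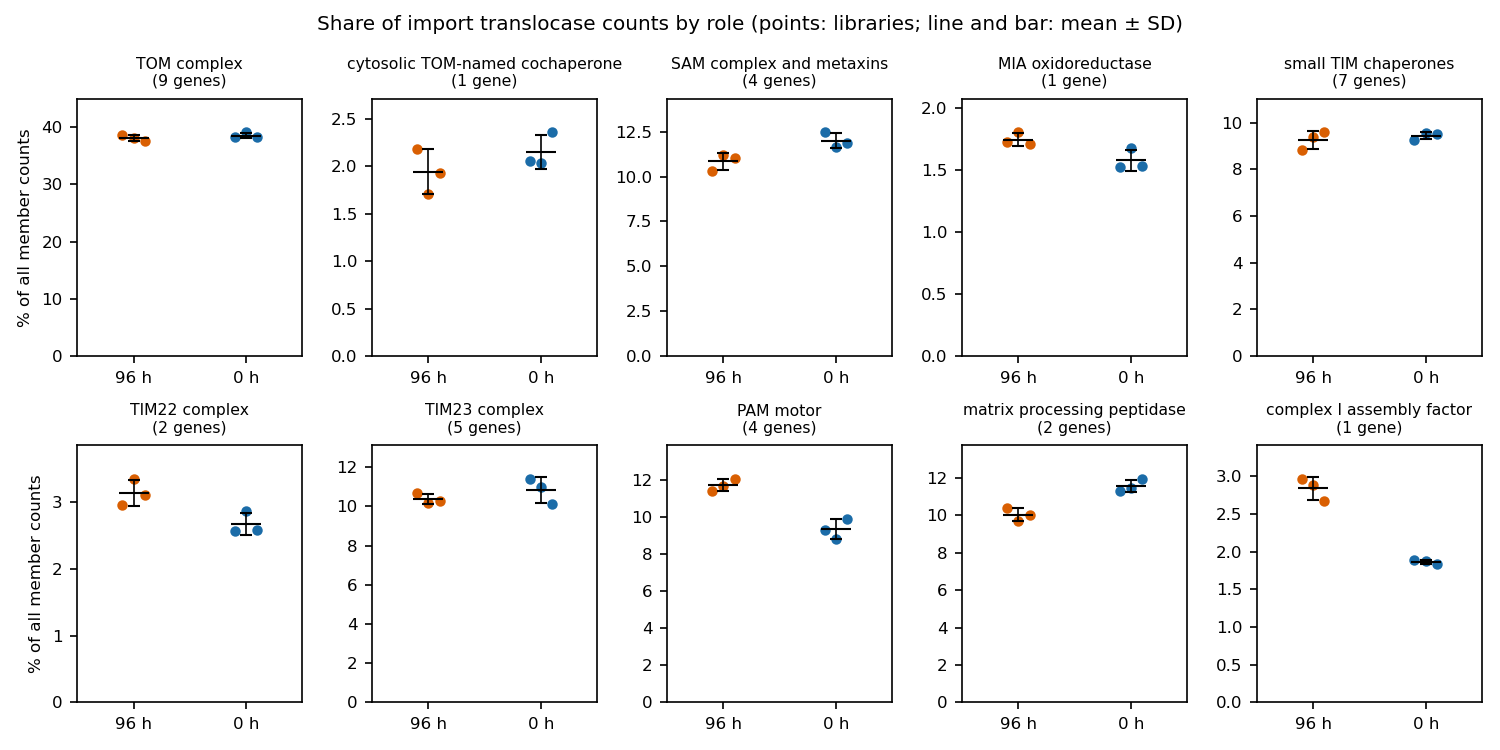
Share of all member counts taken by each role group in each library, in percent, 96 h left of 0 h; points are libraries and the line and bar are the mean ± SD (n = 3). The PAM motor lies at 11.4% to 12.0% at 96 h and at 8.81% to 9.89% at 0 h, while TOM overlaps.

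Levels can be compared between genes only per length, here as CPM per kilobase of the median coding transcript in GENCODE M21 (GRCm38). On this scale Tomm20 had the highest level of all members in both states, 57.2 ± 0.15 at 96 h and 72.4 ± 3.3 at 0 h. At 0 h it was followed by Timm13 (60.8 ± 1.7) and Timm23 (60.6 ± 10.8), which did not differ beyond their spread. At 96 h it was followed by Timm23 (47.7 ± 4.1), Tomm6 (47.0 ± 5.5) and Timm13 (43.8 ± 1.8), again not apart. The lowest tested members were Timm21, at 2.30 ± 0.30 per kilobase at 96 h and 2.48 ± 0.16 at 0 h, and Mtx3, at 2.08 ± 0.24 and 2.04 ± 0.05. Timm17a lay below Timm17b at 96 h (3.21 ± 0.23 and 5.31 ± 0.38), where at 0 h they were closer (4.60 ± 0.45 and 5.44 ± 0.65), though Timm17a has a long transcript in this annotation and the order depends on the length used. Over the 34 tested members the log2 fold change followed neither abundance (Spearman rho -0.14 with mean CPM) nor transcript length (rho 0.08), as a description over genes that share libraries.

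Partners of import outside the symbol rule also held both rises and falls. Of 25 tested genes (Tomm6os was too low), 11 were lower (44%) and 2 higher (8%). Over all tested genes these shares were 28.8% and 28.7%, and over genes at or above 5.78 CPM they were 38.6% and 27.6%. The partners had a median log2 fold change of -0.22, equal to that of the members. Cytosolic chaperones that deliver precursors were among the lower: Hsp90ab1 had 4615 ± 136 CPM at 96 h and 6434 ± 152 CPM at 0 h (-0.48 ± 0.04, edgeR adjusted p = 2.06e-07) and Hspa8 had 2828 ± 6.1 and 3626 ± 45 CPM (-0.36 ± 0.04). The higher pair were Dnajc15, a J-protein at TIM23 (0.60 ± 0.13, edgeR adjusted p = 0.00144), and Immp2l, a subunit of the inner membrane peptidase (1.11 ± 0.34), whose call was lost without 96 h replicate 2 (adjusted p = 0.0643). Hspa9, the matrix Hsp70 that PAM acts on, and the motor J-protein Dnajc19, both named after their values were seen, did not pass. Hspa9 had 466 ± 19 CPM at 96 h and 479 ± 10 CPM at 0 h (-0.04 ± 0.04, 0.04 with upper-quartile scaling, and called lower with library size only, at -0.29), and Dnajc19 had 16.4 ± 1.6 and 14.9 ± 1.0 CPM (0.14 ± 0.10, and below 0 with library size only).

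Lists of proteins that use or adjoin these routes held both rises and falls. Of the 7 MICOS genes, whose complex shapes cristae and contacts SAM, 4 fell (57.1%, against 28.8% of all tested genes), with Micos10 (-0.81 ± 0.07) and Chchd3 (-0.44 ± 0.05). The 1 that rose was Micos13 (0.81 ± 0.11), which is 14.3% of the list, against 28.7% of all tested genes. Of 19 twin CX9C substrates of the MIA route, 6 rose and 6 fell (31.6% each way), shares near those of all tested genes (28.7% higher and 28.8% lower), with a median of -0.07. Chchd10, a cristae protein linked in humans to motor neuron disease, had 291 ± 14 CPM at 96 h and 112 ± 10 CPM at 0 h (1.38 ± 0.06, edgeR adjusted p = 6.62e-10). Cmc4 also rose (0.68 ± 0.07), while Ndufb10, a complex I subunit (-0.60 ± 0.05), and Chchd2 (-0.43 ± 0.06) fell. The 24 tested carriers are genes of the Slc25 family, a list not limited to substrates of TIM22. Of them 7 rose (29.2%, also near the share of all tested genes), with the pyrimidine nucleotide carrier Slc25a33 (1.05 ± 0.07) and Slc25a39 (0.36 ± 0.05, 0.11 and not called with library size only). Another 10 fell (41.7%, against 28.8% of all tested genes and 38.6% of those at or above 5.78 CPM), with the ADP/ATP carriers Slc25a5 (-0.54 ± 0.05) and Slc25a4 (-0.34 ± 0.04).

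**Figure D5:**
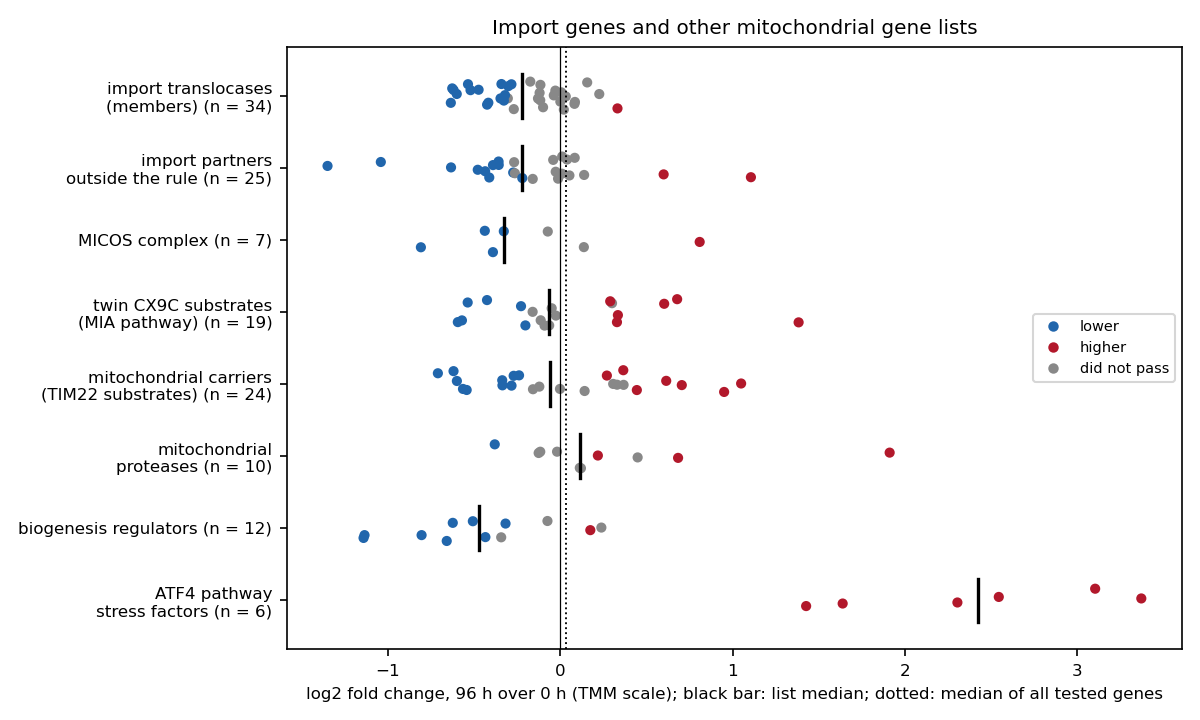
Log2 fold change (96 h over 0 h, TMM scale) of the tested members and of 7 other gene lists; each point is a gene, coloured by its call, black bars are list medians and the dotted line is the median of all tested genes. The members lie between -0.64 and 0.33, a narrower range than those of the twin CX9C substrates and carriers. The carrier list holds genes of the Slc25 family and, despite its label, is not limited to substrates of TIM22.

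Regulators of mitochondrial gene expression were lower in 8 of 12 tested (66.7%, against 28.8% of all tested genes), with a median of -0.47. Gabpb1, the partner subunit of GABP, had 15.1 ± 1.4 CPM at 96 h and 33.3 ± 2.9 CPM at 0 h (-1.14 ± 0.09, edgeR adjusted p = 2.00e-07), and the coactivator Ppargc1b had 11.8 ± 1.1 and 25.9 ± 1.1 CPM (-1.14 ± 0.09). Gabpa (-0.66 ± 0.08) and Nrf1 (-0.81 ± 0.09), named after their values were seen, fell as well. Myc was the member of that list called higher (0.17 ± 0.06, edgeR adjusted p = 0.0166), a call lost with library size only (-0.08). Its adjusted p was 0.105 without 0 h replicate 2, 0.0630 without 0 h replicate 3, 0.0542 without 96 h replicate 1 and 0.0609 without 96 h replicate 3. The call for Myc was also lost with no filter (edgeR adjusted p = 0.058) and in the DESeq2 Wald test (adjusted p = 0.0563). Of 10 mitochondrial proteases 3 rose (30%, near the 28.7% of all tested genes) and 1 fell (10%, against 28.8%). The matrix protease Lonp1 had 410 ± 12 CPM at 96 h and 109 ± 3.8 CPM at 0 h (1.91 ± 0.05), and Htra2 rose as well (0.68 ± 0.09). Yme1l1, an inner membrane protease that acts on Timm17a protein, fell (-0.38 ± 0.08). All 6 ATF4 pathway genes rose (28.7% of all tested genes did), with Trib3 (3.37 ± 0.09) and Ddit3 (3.10 ± 0.07). The mRNAs encoded in mitochondrial DNA, whose proteins need no import, were 1.90% ± 0.09 of the 96 h libraries. They were 1.38% ± 0.19 of the 0 h libraries, without overlap. Mitochondrial rRNA and tRNA were not included. Whether any of these changes bears on the import genes was not tested.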

How the data were processed

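Total RNA was depleted of ribosomal RNA and made into stranded libraries, per the labels' protocols. RNA-seq of 3 libraries per group was deposited as a table of estimated counts per gene, made by the authors; the submitters' processing notes name FastQC 0.12.1, Salmon 1.10.1, DESeq2 1.52.0 and mm39, without a role for each. The deposited estimated counts were rounded to whole numbers for testing. Genes with low counts were removed by edgeR's filterByExpr, libraries were scaled by TMM, and 96 h was set against 0 h over all 13705 tested genes with edgeR's quasi-likelihood test (edgeR 4.0.16, R 4.3.3) and Benjamini-Hochberg adjustment over all of them, with a threshold of 0.05. CPM are on the TMM scale. Ratios of paired members were compared with a two-sided exact permutation test. Alternatives were DESeq2 size factors, upper-quartile scaling, library size only, no filter, a stricter filter, DESeq2 1.42.0, limma-voom (limma 3.58.1), a threshold of 0.01, a replicate block, removal of structural and mitochondrially encoded RNA, and leaving out each library. The members and gene lists were chosen with earlier results of these data known. Beside the members, the text names from each other list the 2 higher and 2 lower genes with the smallest adjusted p, and 4 genes chosen after their values were seen. The 6 libraries held 16.8 to 20.9 M counts, which limits precision for the lowest members. Promoter and length tables are of GRCm38, not mm39, and were matched by gene symbol. One result is not reported here.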

Additional observations from a re-analysis of the deposited data

How the results depend on the processing

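On the TMM scale 15 members were called lower (44.1%, against 28.8% of all tested genes). When each library was left out 12 to 15 were, of which 12 to 14 were among those 15 (all genes 26.3% to 26.8%). The count was 13 with upper-quartile scaling (all genes 24.4%), 14 with the stricter filter (31.1%), 14 in DESeq2 (20.6%) and 13 at a threshold of 0.01 (23.9%). It was 16 with no filter (15.8%) and 25 with library size only (42.7%). The all-gene shares for no filter and DESeq2 are over 26399 and 18415 genes, which include low-count genes that the main fit removed. Among the 13705 genes of the main fit, 4114 were lower with no filter, against 3942 in the main fit. In DESeq2, 3767 of 13699 of these genes were lower. The count called higher was 1 on the TMM scale, 3 with upper-quartile scaling, 2 with the stricter filter and 0 with library size only, and 1 to 2 when each library was left out. Over all genes 3927 were higher, against 2409 with library size only, which moved the median by -0.25 and put 29.2% of calls on the higher side, against 49.9% with TMM and 57.5% with upper-quartile factors. The replicate numbers did not pair the libraries: deviations of same-numbered libraries had correlations of -0.01, 0.03 and -0.01. With the replicate block 2 members were higher (Timmdc1 and Tomm6) and 15 lower. Small estimates changed sign. With library size only they were -0.17 (Grpel1), -0.10 (Grpel2), -0.22 (Mtx3), -0.17 (Pam16), -0.23 (Timm29), -0.24 (Timm44), -0.028 (Tomm6), -0.11 (Dnajc19) and -0.077 (Myc). With no filter they were -0.0052 (Mtx3), -0.016 (Timm29) and -0.031 (Timm44), and in DESeq2 -0.0097 (Timm29) and -0.025 (Timm44). With upper-quartile scaling and the stricter filter they were 0.052 and 0.029 (Timm17b), 0.081 and 0.057 (Timm8b), 0.043 and 0.019 (Tomm7), and 0.039 and 0.016 (Hspa9). Timm8b was 0.0011 in limma-voom and 0.00071 with the replicate block. Leaving out each library gave -0.22 to 0.0085 (Mtx2), -0.045 to 0.11 (Mtx3), -0.0011 to 0.17 (Pam16), -0.13 to 0.031 (Timm17b), -0.027 to 0.087 (Timm29), -0.068 to 0.053 (Timm44), -0.063 to 0.052 (Timm8b), -0.10 to 0.015 (Tomm7) and -0.24 to 0.23 (ratio of Timm10 to Timm9). Of the genes in these lists, Myc passed the test on the TMM scale and the others did not. The cause of the sign changes was not tested. With 3 libraries a group, a p that missed the threshold does not show that a gene was the same in both groups.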
